A study of Mus musculus with 4 samples.

Results

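*Slpi* and other genes for protease inhibitors of leukocytes were followed in CD45+ cells of the mouse dura mater after delivery of VEGF-C to the cerebrospinal fluid. The group held 10 of the 55401 genes in the deposited table, picked by name: *Slpi*, *Wfdc17* and *Wfdc21*, which carry or are related to whey acidic protein domains; the cystatins and stefins *Cst3*, *Cstb*, *Stfa2l1* and *Stfa3*; the serpin *Serpinb1a*; and *Timp1* and *Timp2*. *Slpi* was chosen by its rise after AAV-mVEGF-C in these same libraries, so its values are a description and carry no test. All 10 genes passed the filter on low counts, as did 19806 genes in all.

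Male wild-type C57BL/6J mice received 2 μl of an AAV9 vector into the cisterna magna at 4 wk of age. AAV-mVEGF-C encoded full-length mouse VEGF-C, a growth factor for lymphatic vessels, and AAV-CTRL encoded domains 4 to 7 of soluble VEGFR-3 joined to an immunoglobulin tail, a protein that does not bind VEGF-C. Dural meninges were peeled from skullcaps and digested, and CD45+ cells were sorted by flow cytometry and sequenced in bulk as total RNA. Each group had 2 libraries, each from a pool of 10 to 12 mice, so that single animals are not seen, and no uninjected mice were included. Between 32520709 and 46409700 reads were assigned to genes per library. AAV-CTRL 1 stood apart, with correlations of 0.925 to 0.934 to the other libraries in log2 CPM (read counts scaled to sequencing depth and composition) against 0.968 to 0.973 among those 3, and with 20993 genes detected against 29230 to 37535. *Ptprc*, the gene for CD45, was at 946 to 1151 CPM in all 4 libraries. RNA of other cells was also present: the 7 fibroblast markers summed to 653 and 1043 CPM under AAV-CTRL and to 354 and 550 CPM under AAV-mVEGF-C, and the 6 erythroid markers to 119 and 149 CPM against 26.8 and 49.4 CPM. Of the latter the globin genes *Hba-a2*, at 49.9 and 43.4 CPM against 7.51 and 15.1 CPM, and *Hbb-bs*, at 31 and 41.9 CPM against 7.13 and 13.7 CPM, were highest per transcript length, and both have near copies between which counting can split reads.

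Leukocytes store and secrete proteases that digest matrix, microbes and antigens, and inhibitors made by the same cells and their neighbours hold these enzymes in check. SLPI, the secretory leukocyte protease inhibitor, blocks neutrophil elastase and cathepsin G, and SERPINB1 is an inhibitor of the same granule enzymes inside the neutrophil. Cystatins and stefins occupy the active site of cysteine cathepsins, outside and inside the cell respectively, and TIMPs bind matrix metalloproteinases.

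The coding sequences of *Slpi* and its relatives are shown so that the relatives measured here can be compared and the chance of shared reads judged. They are printed 5′ to 3′ from GENCODE M21 transcripts on GRCm38, with in-frame TGT and TGC codons, which encode cysteine, the residue that forms the disulfides of whey acidic protein domains, in capitals. *Slpi* is shown from coding base 94 to base 393, and its relatives are shown whole. *Slpi* lies on the minus strand (coding span chr2:164354880-164356272), *Wfdc17* on the plus strand (chr11:83704092-83704939), and *Wfdc21* close by on the plus strand (chr11:83747027-83749324).
Slpi: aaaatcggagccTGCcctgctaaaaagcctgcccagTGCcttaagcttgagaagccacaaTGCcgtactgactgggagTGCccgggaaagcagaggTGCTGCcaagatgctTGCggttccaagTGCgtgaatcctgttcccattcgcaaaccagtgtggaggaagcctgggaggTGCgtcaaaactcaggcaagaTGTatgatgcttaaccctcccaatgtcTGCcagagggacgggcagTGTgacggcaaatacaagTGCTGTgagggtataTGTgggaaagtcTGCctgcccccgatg
Wfdc17: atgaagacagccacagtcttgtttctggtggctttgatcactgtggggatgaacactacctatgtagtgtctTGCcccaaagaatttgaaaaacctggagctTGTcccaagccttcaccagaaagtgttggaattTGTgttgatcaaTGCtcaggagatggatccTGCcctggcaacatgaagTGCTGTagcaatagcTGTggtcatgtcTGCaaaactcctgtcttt
Wfdc21: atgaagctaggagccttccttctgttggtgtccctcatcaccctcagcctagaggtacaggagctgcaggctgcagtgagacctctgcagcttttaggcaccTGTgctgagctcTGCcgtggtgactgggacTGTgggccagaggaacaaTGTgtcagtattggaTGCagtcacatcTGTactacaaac
*Slpi* has 17 such codons over 393 coding bases, 16 of them in the stretch shown, *Wfdc17* has 9 over 228, and *Wfdc21* has 6 over 189. The longest run of identical bases between the transcripts of *Slpi* and *Wfdc17* is 10 bases, and between those of *Slpi* and *Wfdc21* 9 bases.

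*Slpi* was higher in both AAV-mVEGF-C libraries than in both AAV-CTRL libraries. The controls had 1204 and 1146 reads of *Slpi*, and the AAV-mVEGF-C libraries 2917 and 1997. Scaled to depth, these were 26.9 and 33.3 CPM against 74.7 and 63 CPM. The 2 libraries of a group differed by 1.24-fold in AAV-CTRL and by 1.19-fold in AAV-mVEGF-C, and the lower AAV-mVEGF-C library was 1.89-fold above the higher AAV-CTRL library. The group means were 30.1 ± 4.52 CPM (SD, n = 2) and 68.8 ± 8.25 CPM (SD, n = 2), which is a 2.29-fold difference, and the fitted log2 fold change was 1.19. Per transcript length, in TPM (the deposited unit scaled to transcript length and depth), *Slpi* was at 26.6 and 34.5 in AAV-CTRL and at 67.3 and 56.7 in AAV-mVEGF-C. As background to this description, both AAV-mVEGF-C libraries were above both AAV-CTRL libraries in 16.8% of all genes tested. The log2 fold change was 1.05 without AAV-CTRL 1, the library that stood apart, and it lay between 1.05 and 1.35 when any library was left out. *Slpi* was chosen for this rise, so these values are a description and no sign of stability.

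The *Slpi* gene spans chr2:164354070-164389095 on the minus strand (GRCm38, GENCODE M21) and has 3 annotated transcripts. Slpi-201 is 876 bases long with 4 exons, Slpi-202 is 488 bases, and Slpi-203 is 601 bases and begins at a distant first exon that accounts for most of the gene's span. The ratio of reads to TPM carries the transcript length that the authors' quantification used. Read against genes with a single transcript and at least 100 reads (1820 to 2260 genes per library), this ratio gave *Slpi* a length of 898 and 864 bases in the controls and of 864 and 874 bases in the AAV-mVEGF-C libraries. All 4 values were closest to Slpi-201, and the typical error of such a length, the median over the reference genes, was 63.2 to 94.9 bases. The lengths in the 4 libraries differed from each other by less than this error. *Mir7678*, a microRNA gene inside the *Slpi* locus on the same strand, was listed at 0 reads in all 4 libraries.

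**Figure D1:**
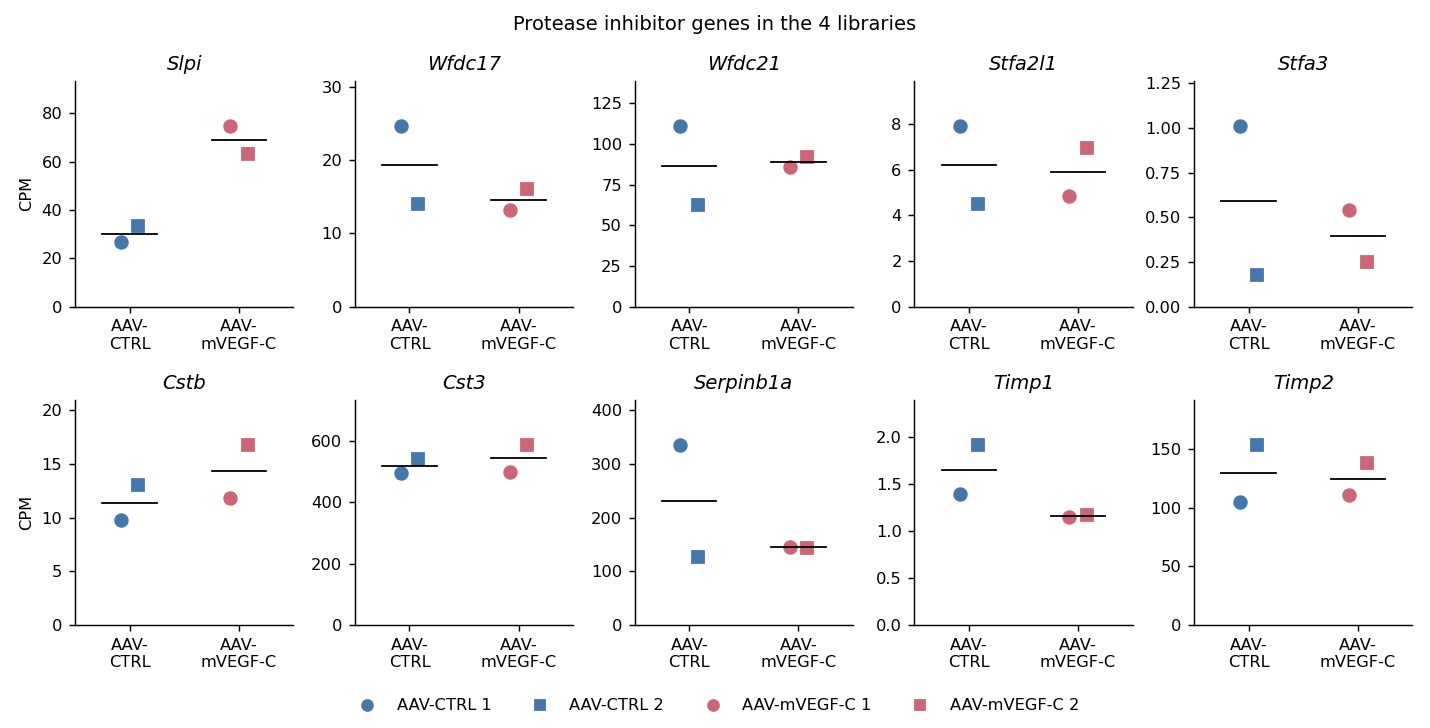
CPM (linear axes from 0, a separate scale in each panel) of the 10 inhibitor genes in each library, with circles for replicate 1, squares for replicate 2, and a line at the mean of each group. *Slpi*, which was chosen for its rise, is the only one of the 10 with both AAV-mVEGF-C libraries above both AAV-CTRL libraries, at 63 and 74.7 against 26.9 and 33.3 CPM. Such separation occurred in 16.8% of all genes tested. AAV-CTRL 1 is the highest library for *Wfdc17*, *Wfdc21*, *Stfa2l1*, *Stfa3* and *Serpinb1a*.

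The other 9 inhibitors showed no rise of this kind. By edgeR's quasi-likelihood test, adjusted over all genes tested by the Benjamini-Hochberg procedure, 0 of the 9 passed an adjusted p of 0.05, and each of their adjusted p-values was 0.999. This was also the background, since 0% of the 19806 genes passed. None of the 9 had an unadjusted edgeR p under 0.05, against 1.46% of genes on the higher side and 1.18% on the lower side. DESeq2 also called 0 of the 9, against 0.332% of the 22885 genes to which it gave an adjusted p. In 8 of the 9 genes the groups overlapped, in none were both AAV-mVEGF-C libraries above both AAV-CTRL libraries, and in 1, *Timp1*, both were below. Of all genes tested, 16.8% were separated above the controls in this way and 15.2% below. The fitted log2 fold changes of the 9 ran from -0.67 to 0.32 with a median of -0.07, beside a median of 0.00344 over all genes tested.

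*Wfdc17* and *Wfdc21* were highest in AAV-CTRL 1. *Wfdc17*, made by activated macrophages and neutrophils, was at 24.7 CPM in that library, at 14 in AAV-CTRL 2, and at 13.2 and 16.1 in the AAV-mVEGF-C libraries. The fitted log2 fold change was -0.41 (SE 0.31, edgeR adjusted p = 0.999), and 0.06 without AAV-CTRL 1. *Wfdc21* was at 111 and 62.2 CPM under AAV-CTRL and at 86.1 and 92.1 CPM under AAV-mVEGF-C. Both AAV-mVEGF-C values thus lay between the controls, and the log2 fold change was 0.04 (SE 0.28, edgeR adjusted p = 0.999). An approximate 95% interval, computed from the SE with a normal quantile, ran from -0.51 to 0.59 for *Wfdc21* and from -1.02 to 0.21 for *Wfdc17*. With so few libraries, intervals computed in this way, here and below, are too narrow.

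The other WFDC genes were scarcely detected. Of 16 relatives on the list, 6 had no read in any library and 2 passed the filter, with 0 called by edgeR in either direction. Reads of *Wfdc1* numbered 8 and 142 under AAV-CTRL and 75 and 55 under AAV-mVEGF-C. *Wfdc2* had 0, 24, 2 and 19 reads in the same order, and neither gene separated the groups. *Wfdc18* reached at most 10 reads, and *Wfdc15b* was seen in AAV-mVEGF-C 1 alone, with 3 reads.

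*Serpinb1a* depended most on a single library among the inhibitors above 10 CPM. It was at 336 CPM in AAV-CTRL 1, at 126 CPM in AAV-CTRL 2, and at 146 and 144 CPM in the AAV-mVEGF-C libraries. AAV-CTRL 1 was therefore 2.67-fold above the other control, while the AAV-mVEGF-C libraries differed by 1.01-fold. The log2 fold change was -0.67 (SE 0.43, edgeR adjusted p = 0.999). Without AAV-CTRL 2, which left AAV-CTRL 1 as the only control and assumes that it varied like the other libraries, the value was -1.21 with an edgeR adjusted p of 0.00382. Without AAV-CTRL 1 it turned to 0.21 with an adjusted p of 0.962.

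Of 14 further clade B serpins, intracellular inhibitors of granule and lysosomal proteases, 7 passed the filter, 0 were called, and their median log2 fold change was -0.04, with values from -0.28 to 0.07 when a library was left out. The groups overlapped in 5 of the 7, and in 2, *Serpinb6a* and *Serpinb9b*, both AAV-mVEGF-C libraries were lower, against 15.2% of all genes. *Serpinb9*, the inhibitor of granzyme B, stayed within 36.4 to 38.8 CPM in all 4 libraries. *Serpinb6a* was at 33.3 and 34.4 CPM under AAV-CTRL and at 25.3 and 29.3 CPM under AAV-mVEGF-C (log2 fold change -0.31, SE 0.18, edgeR adjusted p = 0.999). *Serpinb6b* lay between 21.6 and 28.7 CPM, and *Serpinb10*, a serpin of bone marrow cells, at 17.8 and 10.2 CPM against 11.6 and 13.3 CPM. *Serpinb1b* and *Serpinb1c* share 89.9% and 88.2% of aligned coding columns with *Serpinb1a*, with identical runs of up to 81 bases, but neither passed the filter.

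Among the stefins, *Stfa2l1* and *Stfa3* were also highest in AAV-CTRL 1. *Stfa2l1*, a stefin A gene of myeloid cells, was at 7.9 and 4.48 CPM under AAV-CTRL and at 4.84 and 6.94 CPM under AAV-mVEGF-C (log2 fold change -0.07, SE 0.40, edgeR adjusted p = 0.999). *Stfa3* had 45 and 6 reads in AAV-CTRL and 21 and 8 reads in AAV-mVEGF-C. Its 2 controls differed by 5.77-fold, the log2 fold change was -0.58 with an SE of 1.29, and no difference was detectable at this depth.

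Stefin A genes lie side by side as near copies, so their reads can be split between them by counting. The first 150 coding bases of 3 of them are printed to show how close they are, with capitals at the 23 positions where the 3 are not the same. They come from GENCODE M21 on GRCm38, with *Stfa2l1* on the plus strand (coding span chr16:36156837-36161869) and *Stfa2* and *Stfa3* on the minus strand (chr16:36404030-36408333 and chr16:36450612-36455364).
Stfa2l1: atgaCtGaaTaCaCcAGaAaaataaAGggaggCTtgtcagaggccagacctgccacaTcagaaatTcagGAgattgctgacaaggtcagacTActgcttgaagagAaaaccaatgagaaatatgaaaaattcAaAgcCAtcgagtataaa
Stfa2: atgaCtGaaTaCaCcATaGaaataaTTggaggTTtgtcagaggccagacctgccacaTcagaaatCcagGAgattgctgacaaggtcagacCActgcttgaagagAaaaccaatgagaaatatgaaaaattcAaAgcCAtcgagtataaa
Stfa3: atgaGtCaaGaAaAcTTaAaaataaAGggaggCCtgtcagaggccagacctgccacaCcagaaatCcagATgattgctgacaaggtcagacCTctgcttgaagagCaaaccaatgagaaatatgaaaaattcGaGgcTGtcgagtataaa
Over the whole coding sequence of 309 bases, *Stfa2l1* was identical to *Stfa2* in 96.4% of columns and to *Stfa3* in 81.6%, and the longest shared run of the transcripts was 97 bases and 26 bases. *Stfa2l1* and *Stfa2* are therefore uncertain as separate genes, and *Stfa2* itself had 19, 1, 11 and 11 reads. *Stfa1*, at 2 and 12 reads in AAV-CTRL and 21 and 28 in AAV-mVEGF-C, was the 1 of 4 tested relatives with separated groups (log2 fold change 1.85, SE 1.40, edgeR adjusted p = 0.999), where 16.8% of all genes were higher in both AAV-mVEGF-C libraries. *Cstdc4*, another stefin A gene, was at 4.36, 1.8, 3.15 and 3.88 CPM, and *Cst7*, a cystatin of cytotoxic and myeloid cells, lay at 13 to 15.7 CPM in all libraries.

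For *Cst3* and *Cstb* the groups overlapped, with small fitted changes. *Cst3*, or cystatin C, the main secreted inhibitor of cysteine cathepsins, was at 494 and 542 CPM under AAV-CTRL and at 498 and 588 CPM under AAV-mVEGF-C. The fitted log2 fold change was 0.07 (SE 0.17, edgeR adjusted p = 0.999), with an approximate 95% interval from -0.27 to 0.41, the narrowest among the 9. *Cstb*, or stefin B, which acts in the cytosol, was at 9.82 and 13 CPM against 11.8 and 16.8 CPM. For both genes, the libraries of a group differed by more than the group means did. The log2 fold change of *Cstb* was 0.32 (SE 0.28, edgeR adjusted p = 0.999), with an interval from -0.23 to 0.88, and it ran from 0.04 without AAV-mVEGF-C 2 to 0.57 without AAV-mVEGF-C 1.

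*Timp1* and *Timp2* differed in level and not detectably by treatment. *Timp1* had 62 and 66 reads in AAV-CTRL and 45 and 37 reads in AAV-mVEGF-C, or 1.39 and 1.92 CPM against 1.15 and 1.17 CPM. Both AAV-mVEGF-C libraries were below both controls, but the log2 fold change of -0.51 had an SE of 0.59 (edgeR adjusted p = 0.999). It was -0.73 without AAV-CTRL 1 and -0.26 without AAV-CTRL 2. The gene lies on chrX:20870166-20874735, where *Syn1* overlaps it on the opposite strand with 58 to 103 reads per library, and whether counting used strand is not given in the sources used here. *Timp2* was at 105 and 154 CPM under AAV-CTRL and at 111 and 138 CPM under AAV-mVEGF-C (log2 fold change -0.05, SE 0.23, edgeR adjusted p = 0.999). *Cep295nl* lies within *Timp2* on the same strand and had 297 to 609 reads per library.

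A further list of protease inhibitors had values on both sides of the controls. Of 13 listed, 12 were tested and 0 were called. Both AAV-mVEGF-C libraries were above both controls in 4 (*Serpina3f*, *Serpina3g*, *Spint1* and *Spint2*) and below in 3 (*Serpinf1*, *Reck* and *Timp3*), against 16.8% and 15.2% of all genes, and the median log2 fold change was -0.02, with values from -0.26 to 0.15 when a library was left out. *Serpinf1*, the gene for pigment epithelium-derived factor, was at 40.1 and 65.4 CPM under AAV-CTRL and at 22.9 and 37.6 CPM under AAV-mVEGF-C (log2 fold change -0.80, SE 0.33, edgeR adjusted p = 0.999). *Serping1*, the C1 inhibitor gene, was at 12.4 and 27.9 CPM against 10.9 and 13.9 CPM. *Timp3*, the matrix-bound relative of *Timp1* and *Timp2*, was at 30.9 and 35.2 CPM against 15.1 and 18.3 CPM (log2 fold change -0.98, SE 0.20, edgeR adjusted p = 0.999). Among the 4 with higher values, *Serpina3g* was at 17.9 and 16.7 CPM against 20.6 and 28.1 CPM, and *Spint2*, an inhibitor of membrane serine proteases, at 15.7 and 22.8 CPM against 26 and 27.5 CPM. The fibroblast markers moved with *Serpinf1* and *Timp3*, since 5 of the 6 tested were lower in both AAV-mVEGF-C libraries, against 15.2% of all genes, with *Col1a1* at 302 and 468 CPM against 158 and 234 CPM and *Col1a2* at 228 and 369 CPM against 122 and 194 CPM. Their part in these values was not tested. In bulk samples, fewer cells of a type and less RNA per cell cannot be told apart.

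**Figure D2:**
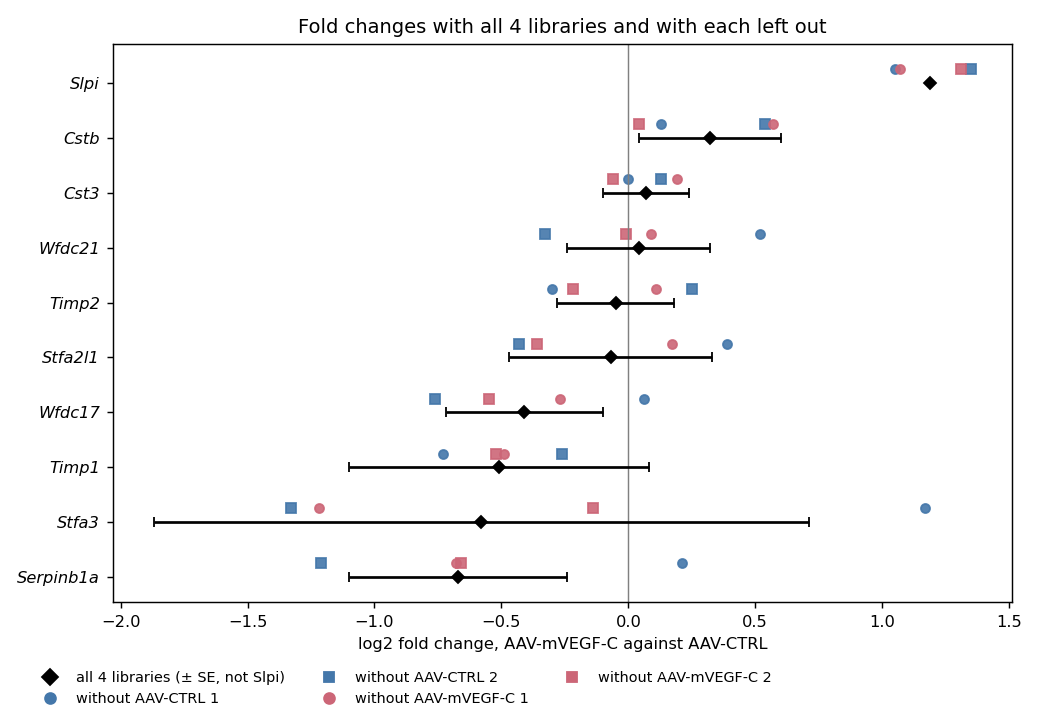
Log2 fold change of the 10 inhibitor genes, AAV-mVEGF-C against AAV-CTRL, with all 4 libraries (black diamonds, bars 1 SE, none for *Slpi*) and with each library left out (coloured points, drawn just above). *Slpi* lies between 1.05 and 1.35 whichever library is left out, and *Serpinb1a* runs from -1.21 without AAV-CTRL 2 to 0.21 without AAV-CTRL 1. Because *Slpi* was chosen for its rise, its range is no sign of stability.

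Levels of the inhibitors were ordered per transcript length. *Cst3* had the highest mean over the 4 libraries, at 605 TPM, followed by *Wfdc21* at 258 TPM, and the lowest library of each was above the highest library of the next gene in the order. *Serpinb1a*, at 81.9 TPM on average, overlapped with *Slpi* at 46.3 TPM. *Slpi* in turn overlapped with *Wfdc17* at 36.9 TPM, and *Wfdc17* with *Timp2* at 36.2 TPM. *Cstb* and *Stfa2l1*, at 21.6 and 20.5 TPM, overlapped, and so did *Stfa3* and *Timp1* at the bottom, at 1.7 and 1.42 TPM. By group means *Slpi* was the sixth of the 10 in AAV-CTRL, at 30.5 ± 5.64 TPM (SD, n = 2), and the third in AAV-mVEGF-C, at 62 ± 7.53 TPM (SD, n = 2), beside *Serpinb1a* at 61.8 ± 1.1 TPM (SD, n = 2).

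Of the 5 genes whose profile over the 4 libraries was closest to that of *Slpi*, 3 were immunoglobulin genes and the others were *Jchain* and *Ttn*. Because *Slpi* was chosen for its rise, genes close to it are higher in the AAV-mVEGF-C libraries by construction. Likeness was measured over 9336 other genes with a mean of at least 10 CPM, as the Euclidean distance between centred log2(CPM + 1) values, and 4 libraries give little power to tell profiles apart. *Igkv10-96* was the closest, at a distance of 0.245, with 31.9 and 35.3 CPM under AAV-CTRL and 76.1 and 58.4 CPM under AAV-mVEGF-C. *Igkv4-55* followed at 0.26, and both are kappa variable genes, a family of near copies between which counting can split reads. *Ttn*, the gene for the muscle protein titin, came next at 0.296, with 15.2 and 20.6 CPM against 43.4 and 29.6 CPM. *Jchain*, the joining chain of polymeric immunoglobulin, was at 0.314, with 261 and 269 CPM against 672 and 680 CPM, and *Igha*, the heavy constant gene of IgA, at 0.336, with 437 and 473 CPM against 1146 and 1217 CPM. Of the members other than *Slpi* with a mean of at least 10 CPM, *Cstb* had the lowest distance, 1.02 at rank 1172, and *Serpinb1a* ranked 9214.

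Markers of plasma cells, the cells that secrete antibody, were higher in the same libraries as *Slpi*, without passing the adjusted test. All 6 listed markers were higher in both AAV-mVEGF-C libraries, against 16.8% of all genes, their summed level was 436 and 446 CPM under AAV-CTRL against 902 and 906 CPM under AAV-mVEGF-C, none was at 0, and their median log2 fold change was 0.73, with 0 called. Markers of B cells, from which plasma cells derive, had values on the other side: all 6 had fitted changes under 0, 2 were lower in both AAV-mVEGF-C libraries (15.2% of all genes were), 0 were called, and the median log2 fold change was -0.76, or 0.05 without AAV-CTRL 2. Their summed level was 277 and 655 CPM in the controls against 281 and 299 CPM, and AAV-CTRL 2 was the high library. *Cd79a* and *Cd79b*, the signalling chains of the B cell receptor, were at 68.6 and 176 CPM against 66.1 and 78.4 CPM and at 38 and 94.5 CPM against 34.3 and 44.1 CPM. *Jchain* made up most of the plasma cell sum, and *Xbp1*, a factor of secretory cells, was at 119 and 105 CPM against 128 and 128 CPM. As a percentage of the summed TPM of the plasma cell markers, *Slpi* was at 11.2% and 12.7% in AAV-CTRL and at 13.5% and 11.1% in AAV-mVEGF-C, so the groups overlapped on this scale. *Jchain*, already among the profiles closest to *Slpi*, held 164 and 186 TPM of sums of 236 and 272 TPM in AAV-CTRL. In AAV-mVEGF-C it held 405 and 413 TPM of 499 and 510 TPM. This is therefore largely the ratio to *Jchain*, and a ratio to the other plasma cell markers was not computed. Relative to the summed neutrophil, macrophage and monocyte markers and to *Ptprc*, the groups stayed apart, although 3 of the 12 neutrophil markers (*Csf3r*, *Retnlg* and *Clec4d*) were themselves higher in both AAV-mVEGF-C libraries. The median log2 fold changes of these 3 lists were 0.04, -0.24 and -0.07, and that of *Ptprc* was 0.02. Since *Slpi* was chosen for its rise, its ratio to markers without such a rise separates by that choice. *Slpi* was at 0.0779% and 0.212% of the 12 neutrophil markers in AAV-CTRL against 0.356% and 0.26% in AAV-mVEGF-C. Against the 10 macrophage markers it was at 4.29% and 3.42% against 14.3% and 7.48%, and against the 8 monocyte markers at 1.5% and 2.65% against 5.28% and 3.97%. The macrophage markers of highest mean TPM were the complement genes *C1qb*, at 242 and 324 CPM against 185 and 306 CPM, and *C1qa*, at 203 and 298 CPM against 158 and 272 CPM. Among the monocyte markers they were *Chil3*, a chitinase-like gene, at 1385 and 649 CPM against 884 and 866 CPM, and *Nr4a1*, a nuclear receptor gene, at 1137 and 1446 CPM against 1349 and 1728 CPM. Relative to *Ptprc*, *Slpi* was at 12.4% and 16.4% against 33.7% and 29.7%. The part of any of these cells in the *Slpi* values was not tested.

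**Figure D3:**
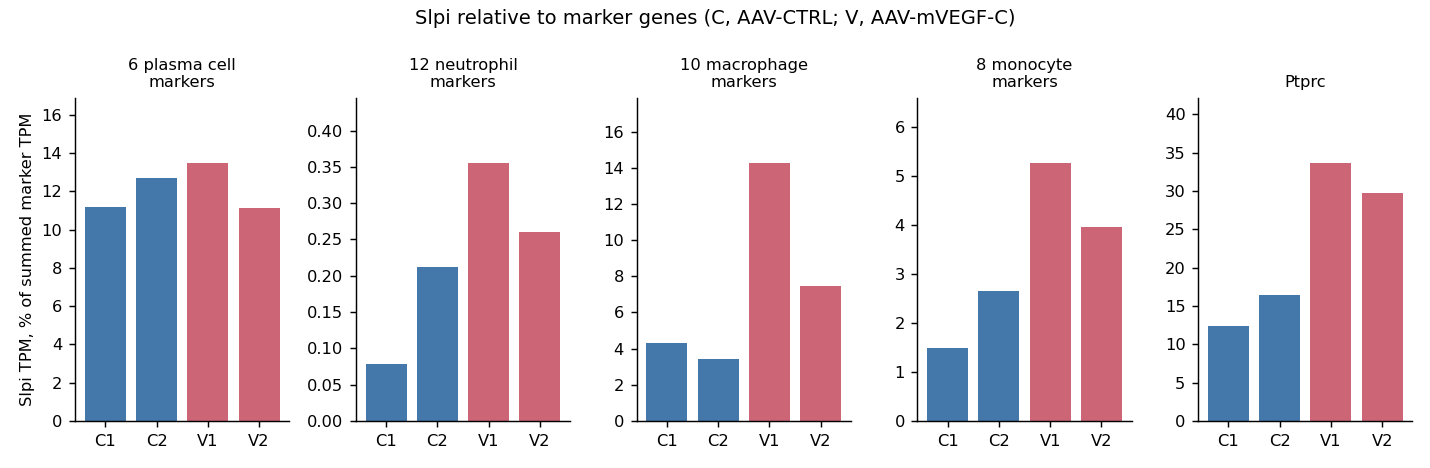
*Slpi* TPM as a percentage of the summed TPM of marker genes in each library (bars from 0, blue for AAV-CTRL 1 and 2, red for AAV-mVEGF-C 1 and 2, a separate scale in each panel). The bars are near each other for plasma cell markers, from 11.1% to 13.5%, a sum made up mostly of *Jchain*. The groups do not overlap for neutrophil, macrophage and monocyte markers and for *Ptprc*. As *Slpi* was chosen for its rise and *Jchain* is among the profiles closest to it, this contrast is a description and no test.

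Most neutrophil markers had their highest level in AAV-CTRL 1, as 5 of the inhibitors did. The 12 markers summed to 28083 and 13028 CPM in the controls and to 16566 and 18688 CPM in the AAV-mVEGF-C libraries. None was at 0, and in 9 of the 12 the groups overlapped. The other 3 were higher in both AAV-mVEGF-C libraries, against 16.8% of all genes: *Csf3r*, the receptor for granulocyte colony-stimulating factor, at 209 and 162 CPM against 244 and 281 CPM, *Retnlg* at 302 and 193 CPM against 319 and 343 CPM, and *Clec4d* at 24.9 and 14.7 CPM against 27.9 and 31.1 CPM. The sum was carried by abundant granule and cytosolic genes, among them *S100a9*, *Ngp* and *Ltf*. *S100a8* was at 2264, 1076, 1620 and 1784 CPM and *S100a9* at 5696, 2597, 3925 and 4401 CPM. *Wfdc21* came to 1.04%, 1.21%, 1.2% and 1.16% of the summed marker TPM in the same order of libraries, so most of its spread between libraries was shared with these markers. *Stfa2l1* was at 0.0789%, 0.103%, 0.0833% and 0.104%, so a larger part of its spread remained on this scale. On the same scale *Serpinb1a* was at 0.418% and 0.376% in AAV-CTRL against 0.323% and 0.287% in AAV-mVEGF-C, and *Wfdc17* at 0.166% and 0.201% against 0.137% and 0.15%. The share of neutrophils in these inhibitor values was not tested.

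The serine proteases of neutrophil granules were also highest in AAV-CTRL 1. *Elane*, neutrophil elastase, was at 525 and 130 CPM under AAV-CTRL and at 290 and 233 CPM under AAV-mVEGF-C. *Prtn3*, proteinase 3, which SLPI is not known to block, was at 236 and 49.7 CPM against 132 and 101 CPM, and *Ctsg*, cathepsin G, at 164 and 28.8 CPM against 58.3 and 48.3 CPM. For each of the 3 genes, both AAV-mVEGF-C libraries lay between the controls, 0 were called, and the median log2 fold change was -0.33, which became 1.01 without AAV-CTRL 1 and -1.02 without AAV-CTRL 2. *Slpi* and *Serpinb1a* together came to 21.8% and 52% of the summed TPM of these proteases in AAV-CTRL and to 35% and 41% in AAV-mVEGF-C. *Slpi* alone was at 3.43% in AAV-CTRL 1 and at 18.8%, 18.4% and 19.5% in the other 3 libraries, so the groups overlapped and AAV-CTRL 1 stood apart. Relative to *Elane* and *Ctsg* alone, a ratio computed after the data had been seen, *Slpi* was at 4.5% in AAV-CTRL 1 and at 24.2% in AAV-CTRL 2, against 24.8% and 25.8% in the AAV-mVEGF-C libraries, so AAV-CTRL 1 again stood apart from 3 libraries with close values.

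Mast cell proteases were lower in the AAV-mVEGF-C libraries, without passing the adjusted test. In 4 of the 5, both AAV-mVEGF-C libraries were below both controls and the unadjusted edgeR p was under 0.05, where 15.2% and 1.18% of all genes did so, and 0 were called after adjustment. *Cma1*, mast cell chymase, was at 556 and 347 CPM under AAV-CTRL and at 274 and 312 CPM under AAV-mVEGF-C (log2 fold change -0.63, SE 0.25, edgeR adjusted p = 0.999). *Mcpt4*, another chymase, was at 531 and 360 CPM against 268 and 314 CPM. *Tpsb2*, a tryptase, was at 411 and 320 CPM against 259 and 268 CPM, and *Cpa3*, mast cell carboxypeptidase, at 373 and 282 CPM against 214 and 210 CPM. The list's median log2 fold change was -0.62, and -0.28 without AAV-CTRL 1. Markers of mast cells, 3 of which are proteases of this list, summed to 1606 and 1219 CPM under AAV-CTRL against 986 and 1032 CPM under AAV-mVEGF-C, none was at 0, and 5 of the 7 were lower in both AAV-mVEGF-C libraries. Their part was not tested. *Slpi* came to 1.93% and 3.37% of the summed TPM of mast cell proteases in AAV-CTRL and to 9.77% and 7.43% in AAV-mVEGF-C.

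Cysteine cathepsins and their inhibitors stood in similar ratios in all libraries. Of the 11 proteases, 0 were called, 9 had overlapping groups, *Ctsc* and *Ctsf* were lower in both AAV-mVEGF-C libraries (15.2% of all genes were), and the median log2 fold change was -0.15, with values from -0.40 to 0.01 when an AAV-mVEGF-C library was left out. *Ctss*, cathepsin S of antigen-presenting cells, lay between 649 and 729 CPM in the 4 libraries. *Ctsb* was at 524 and 683 CPM against 454 and 602 CPM. *Ctsz* was at 229 and 202 CPM against 164 and 212 CPM, and *Ctsc*, which activates the granule serine proteases, at 292 and 321 CPM against 267 and 284 CPM. *Cst3*, *Cstb* and the stefins *Stfa1*, *Stfa2*, *Stfa2l1* and *Stfa3* together came to 63.7% and 63.3% of the proteases' summed TPM in AAV-CTRL and to 66.8% and 69.1% in AAV-mVEGF-C. *Cst3* alone made up 515 to 704 TPM of an inhibitor sum of 552 to 746 TPM, so this is largely the ratio of *Cst3*, and *Cst7* and *Cstdc4* are not in it. The groups did not overlap on this scale, and their means differed by 1.07-fold.

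Matrix metalloproteinases were led by the neutrophil enzymes *Mmp8* and *Mmp9*. *Mmp9* was at 740 and 499 CPM under AAV-CTRL and at 658 and 682 CPM under AAV-mVEGF-C, and *Mmp8* at 485 and 249 CPM against 412 and 428 CPM. *Mmp25*, a membrane-bound enzyme of leukocytes, was at 126 and 85.8 CPM against 128 and 125 CPM. *Mmp14* was the 1 of these 4 with separated groups, at 47.4 and 45.9 CPM against 34.9 and 38.4 CPM (log2 fold change -0.35, SE 0.16, edgeR adjusted p = 0.999). Of 16 tested members 0 were called, 4 were lower (*Mmp2*, *Mmp3*, *Mmp14* and *Mmp23*) and 1 higher (*Mmp17*) in both AAV-mVEGF-C libraries, against 15.2% and 16.8% of all genes, and the median log2 fold change was -0.26, or -0.06 without AAV-mVEGF-C 1. Fibroblast markers were lower in the same libraries, 5 of 6 tested in both and with a median log2 fold change of -0.92 (-0.51 without AAV-CTRL 2), and their part in these values was not tested. *Timp1* and *Timp2* came to 8.64% and 17.1% of the summed TPM of these enzymes in AAV-CTRL and to 9.33% and 10.4% in AAV-mVEGF-C, so the groups overlapped.

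**Figure D4:**
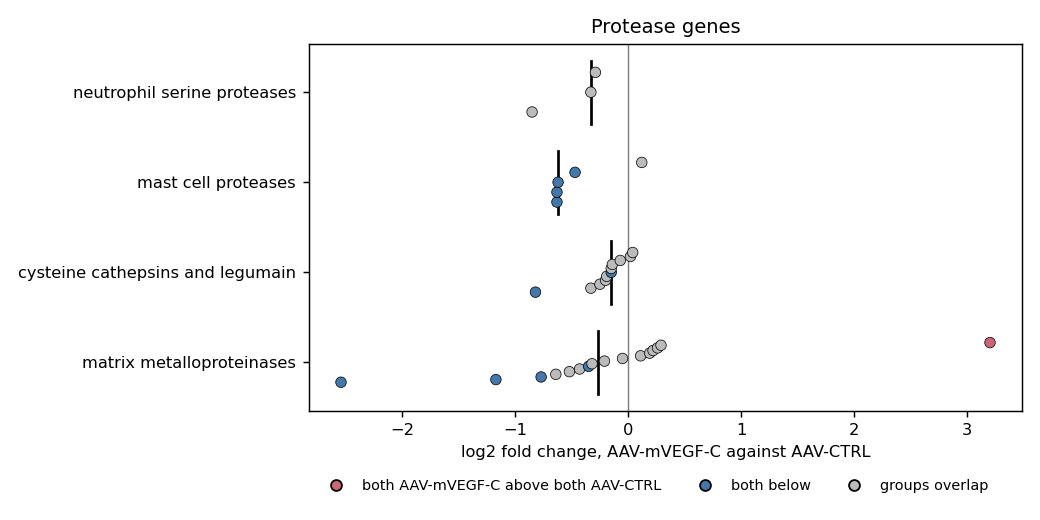
Log2 fold change, AAV-mVEGF-C against AAV-CTRL, of each tested gene in the 4 protease lists, with a black line at the list's median. Red points have both AAV-mVEGF-C libraries above both AAV-CTRL libraries, blue points both below and grey points overlapping groups. In mast cell proteases 4 of 5 points are blue, and in neutrophil serine proteases all 3 are grey. The point farthest to the right, *Mmp17*, had 0 and 9 reads in AAV-CTRL and 65 and 23 reads in AAV-mVEGF-C, so its size rests on few reads.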

How the data were processed

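CD45+ cells sorted from dural meninges were sequenced as 2 AAV-CTRL and 2 AAV-mVEGF-C libraries, each a pool of 10 to 12 mice. Libraries were prepared with the SMARTer Stranded Total RNA-Seq Kit for picogram input and sequenced as paired reads. The authors deposited estimated counts, which need not be whole (8.18% of values had decimals), without normalization, and TPM for the same genes. The submitters' processing notes name FastQC, Trimmomatic, DRAGEN and Picard, and the build mm10. Whether counting used strand, and the interval from injection to sorting of these cells, are not given in the sources used here. The labels give each pool an experiment number and no more, so p-values measure the spread between these libraries.

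Estimated counts were rounded and tested with edgeR 4.0.16 in R 4.3.3 (quasi-likelihood test, TMM scaling, filterByExpr, no covariate) on 4 libraries and 19806 of 55401 genes, with Benjamini-Hochberg adjustment at 0.05. The common dispersion was 0.173. The SE, not given for *Slpi*, is the log2 fold change divided by the square root of F. CPM are TMM-scaled. The fit was tested on simulated data. DESeq2 1.42.0, limma 3.58.1 with voom or on log2(TPM + 1) and log2(TPM + 0.1), RLE scaling, other filters, a replicate block and leaving out each library were alternatives. No test is given for *Slpi*, and ratios of TPM are descriptions without a test. Between 6 and 66 reads per library lay behind *Stfa3* and *Timp1*, the members with the fewest reads.

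The members and gene lists were chosen with earlier results of these data known. Lists were described by counts and medians, without a set test. Named genes were the 10 members, the 4 genes of highest mean TPM in each inhibitor or protease list, the 2 highest in each marker list described, and the 5 genes closest to *Slpi*. *Syn1*, *Cep295nl*, *Mir7678*, *Serpinb1b* and *Serpinb1c*, as overlapping genes or near copies, and list genes outside this rule (*Timp3*, *Reck*, *Spint1*, *Serpina3f*, *Serpinb9b*, *Ctsf*, *Csf3r*, *Retnlg*, *Clec4d*, *Ngp*, *Ltf*, *Mmp2*, *Mmp3*, *Mmp17* and *Mmp23*), as those with separated groups or a large part of a sum, were named after their values were seen. Coordinates and transcripts are from GENCODE M21 on GRCm38, whose identifiers matched 54349 genes. Of the listed symbols, 2 were not found and 1 was found under the newer symbol *Cstdc4* through RefSeq synonyms.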

Additional observations from a re-analysis of the deposited data

How the results depend on the processing

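The *Slpi* log2 fold change ran from 1 to 1.21 under 9 alternatives that kept all libraries, and from 1.05 to 1.35 with a library left out. As the gene was chosen for its rise in these libraries, these ranges are no sign of stability. The count of genes with an adjusted p under 0.05 was 0 in the edgeR fit, where 523 genes had an unadjusted p under 0.05, and 268 without the filter on low counts, 76 by DESeq2 and 11 when the titles' experiment number entered as a replicate block. It ranged from 0 to 1798 with a library left out: 212 without AAV-CTRL 1, 1798 without AAV-CTRL 2, 2 without AAV-mVEGF-C 1 and 0 without AAV-mVEGF-C 2. The experiment numbers could not be shown to pair the libraries: deviations of same-numbered libraries correlated at -0.134, and the columns number them differently. With crossed pairing, chosen after seeing the data, the replicate block gave 54 genes. The block changed no call among the 9 inhibitors other than *Slpi*, whose log2 fold change was 1.20 with it.

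For 7 of the 9 other inhibitors the direction changed with a library left out or in TPM, *Serpinb1a* and *Stfa3* with the largest fitted changes among them. The log2 fold change of *Wfdc17* ran from -0.76 without AAV-CTRL 2 to 0.06 without AAV-CTRL 1. Between the same omissions *Stfa2l1* ran from -0.43 to 0.39, *Stfa3* from -1.33 to 1.17, *Wfdc21* from -0.33 to 0.52 and *Serpinb1a* from -1.21 to 0.21, and *Timp2* ran from -0.30 without AAV-CTRL 1 to 0.25 without AAV-CTRL 2. Without AAV-mVEGF-C 1, *Stfa2l1* was at 0.17 and *Timp2* at 0.11. *Cst3* was at 0.19 without AAV-mVEGF-C 1 and at -0.06 without AAV-mVEGF-C 2, where *Wfdc21* was at -0.01. On log2(TPM + 1) and log2(TPM + 0.1), *Wfdc21* was at -0.14 and -0.14 and *Cst3* at -0.17 and -0.17. With the pseudocount of 0.1 the median over all genes was -0.112, and *Slpi* was 1.14 above it. *Serpinb1a* passed the threshold in 1 alternative, without AAV-CTRL 2. The cause of these changes was not tested.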
